A study of Rattus norvegicus with 6 samples.

Results

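Myc is a transcription factor that binds DNA only as a pair with Max, at sites whose core is CACGTG. The Mxd proteins, Mxi1 and Mnt also pair with Max at such sites and there repress transcription. Among the best known targets of Myc are the genes that build ribosomes: RNA polymerase I, which copies the ribosomal RNA genes in the nucleolus, and the nucleolar proteins that modify, cut and fold that RNA into subunits. In adult muscle, ribosome production is one of the processes that set the capacity for protein synthesis.

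The genes described here are 40 listed symbols of this network, of which 6 are Myc, Max and Max-binding repressors and the rest are nucleolar or RNA polymerase I genes. They were found by exact gene name in a table of 30957 rat genes. Names matched for 38 symbols, in 39 rows. Rrn3 and Heatr1 had no row of that name and were not analysed here. Nhp2, a protein of the box H/ACA particles, had 2 rows on chromosome 10, both listed at 0 in every library. The other 37 genes passed the filter on low counts and were tested.

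The samples were total RNA of a toe-flexing leg muscle, the flexor digitorum longus, from wild-type Sprague-Dawley rats. The control group held 3 libraries at 0 h. The ACS group held 3 libraries at 18 h of acute osteofascial compartment syndrome, in which raised pressure within a muscle compartment limits blood flow; it was induced by tying a band of low elasticity over the skin at the knee. The treatment label reads ACS in both groups, so the groups were taken from the titles. With control only at 0 h and ACS only at 18 h, the syndrome and the elapsed time cannot be told apart. The labels do not say whether each library is a different animal or a pool. The p-values therefore refer only to the variation among the 3 libraries of a group, part or all of which could be technical.

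Library totals lay between 14340865 and 21003928 counts. Genes of the mitochondrial chromosome took 43.4% of the counts in ACS replicate 1 and between 4.82% and 8.60% in the other libraries, so this library stood apart. Fibre genes marked the tissue in all libraries, with Acta1, skeletal muscle actin, between 17372.0 and 53966.8 CPM (read counts divided by library size after scaling by the trimmed mean of M values, TMM). Markers of other cells differed between the groups. The summed level of 8 macrophage markers lay between 46.7 and 78.1 CPM in control libraries and was 1721, 162 and 114 CPM in ACS replicates 1, 2 and 3, of which Lyz2 alone gave 1554, 94.2 and 78.0 CPM. Without Lyz2 the other 7 summed to 24.5, 41.5 and 42.1 CPM in control and 167, 68.1 and 35.9 CPM in ACS, so ACS replicate 3 lay inside the control range; 0 of the 8 passed, and Adgre1 was lower in every ACS library. For 7 neutrophil markers the sum lay between 14.7 and 22.2 CPM in control and was 271, 26.9 and 69.9 CPM in ACS. Ncf1 made up most of the control sum, at 21.2, 19.7 and 10.8 CPM. It was on the lower side in ACS, at 12.1, 8.90 and 5.80 CPM (log2 fold change -0.95). Of the 6 tested, 5 rose: S100a8, S100a9, Cxcr2, Mmp8 and Trem1. The sum of 5 fibroblast markers lay between 690 and 1076 CPM in control and between 2318 and 2960 CPM in ACS, with 0 past the threshold. The sum of 4 erythroid markers lay between 445 and 1221 CPM in control and between 1747 and 10321 CPM in ACS, and 2 of them, Alas2 and Hbb, rose. Of 5 T and B lymphocyte markers none reached the filter, and their sum was at most 1.22 CPM in any library. The part of other cells in the values below was not tested, and in bulk RNA a change in the number of cells of a type and a change in RNA per cell cannot be told apart.

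Since a CACGTG core is what Myc and Max bind, promoter windows from RefSeq (build GRCr8, 250 bases before to 50 after each gene's start) were searched for these letters, which read the same on both strands. Windows were found for 36 of the 40 symbols. The core stood in 13 of them (36.1%): Max, Mxd4, Mnt, Fbl, Nop2, Dkc1, Pes1, Rrp12, Utp20, Gnl3, Mybbp1a, Noc3l and Bysl. Of all 33469 windows 6.42% held it, and of the 9054 windows of genes tested here 9.32%. The letters are a description of the sequence, and binding was not measured. Shown are the 150 bases before the start in the 5 members whose core lies whole within them, with the core in capitals and each sequence written on the gene's strand.
Gnl3 (chr16:6219783-6219932, minus strand): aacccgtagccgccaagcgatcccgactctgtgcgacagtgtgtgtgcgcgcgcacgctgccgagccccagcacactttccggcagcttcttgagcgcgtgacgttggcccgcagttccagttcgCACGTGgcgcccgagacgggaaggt
Max (chr6:101395291-101395440, minus strand): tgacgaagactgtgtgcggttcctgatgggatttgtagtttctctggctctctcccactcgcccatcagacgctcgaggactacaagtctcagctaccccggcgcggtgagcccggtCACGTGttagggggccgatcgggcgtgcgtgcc
Pes1 (chr14:83074196-83074345, plus strand): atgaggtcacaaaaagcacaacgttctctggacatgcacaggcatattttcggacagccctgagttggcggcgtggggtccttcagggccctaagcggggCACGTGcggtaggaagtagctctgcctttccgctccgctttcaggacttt
Mnt (chr10:60197809-60197958, plus strand): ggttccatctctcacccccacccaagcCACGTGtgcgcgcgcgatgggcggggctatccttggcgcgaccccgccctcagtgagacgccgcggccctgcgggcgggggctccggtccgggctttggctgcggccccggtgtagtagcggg
Utp20 (chr7:25102850-25102999, minus strand): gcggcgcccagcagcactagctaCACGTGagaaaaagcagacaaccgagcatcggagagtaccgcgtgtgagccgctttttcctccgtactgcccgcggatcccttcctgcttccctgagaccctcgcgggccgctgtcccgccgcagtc
The first base of the core is at position -25 from the start in Gnl3, -33 in Max and -50 in Pes1.

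Myc rose most of all the members, and the nucleolar genes lay mostly on the higher side with smaller differences. By edgeR's quasi-likelihood test with Benjamini-Hochberg adjustment over 12873 genes, at a threshold of 0.05, 3 of the 37 members rose and 0 fell. These were Myc, Wdr43 and Gnl3. Over all genes tested 3.43% rose and 0.707% fell, 4.14% in all. At an unadjusted p under 0.05, 24 members were higher and 2 lower, against 15.5% and 7.98% of all genes. DESeq2 called 15 members higher and 0 lower, against 8.86% of its genes higher. Fitted log2 fold changes were above 0 in 33 of 37 members, with a median of 1.03, while 49.3% of all genes were above 0 with a median of -0.01. Every ACS library was above every control library in 26 members and below in 2, against 16.7% and 14.8% of all genes.

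**Figure D1:**
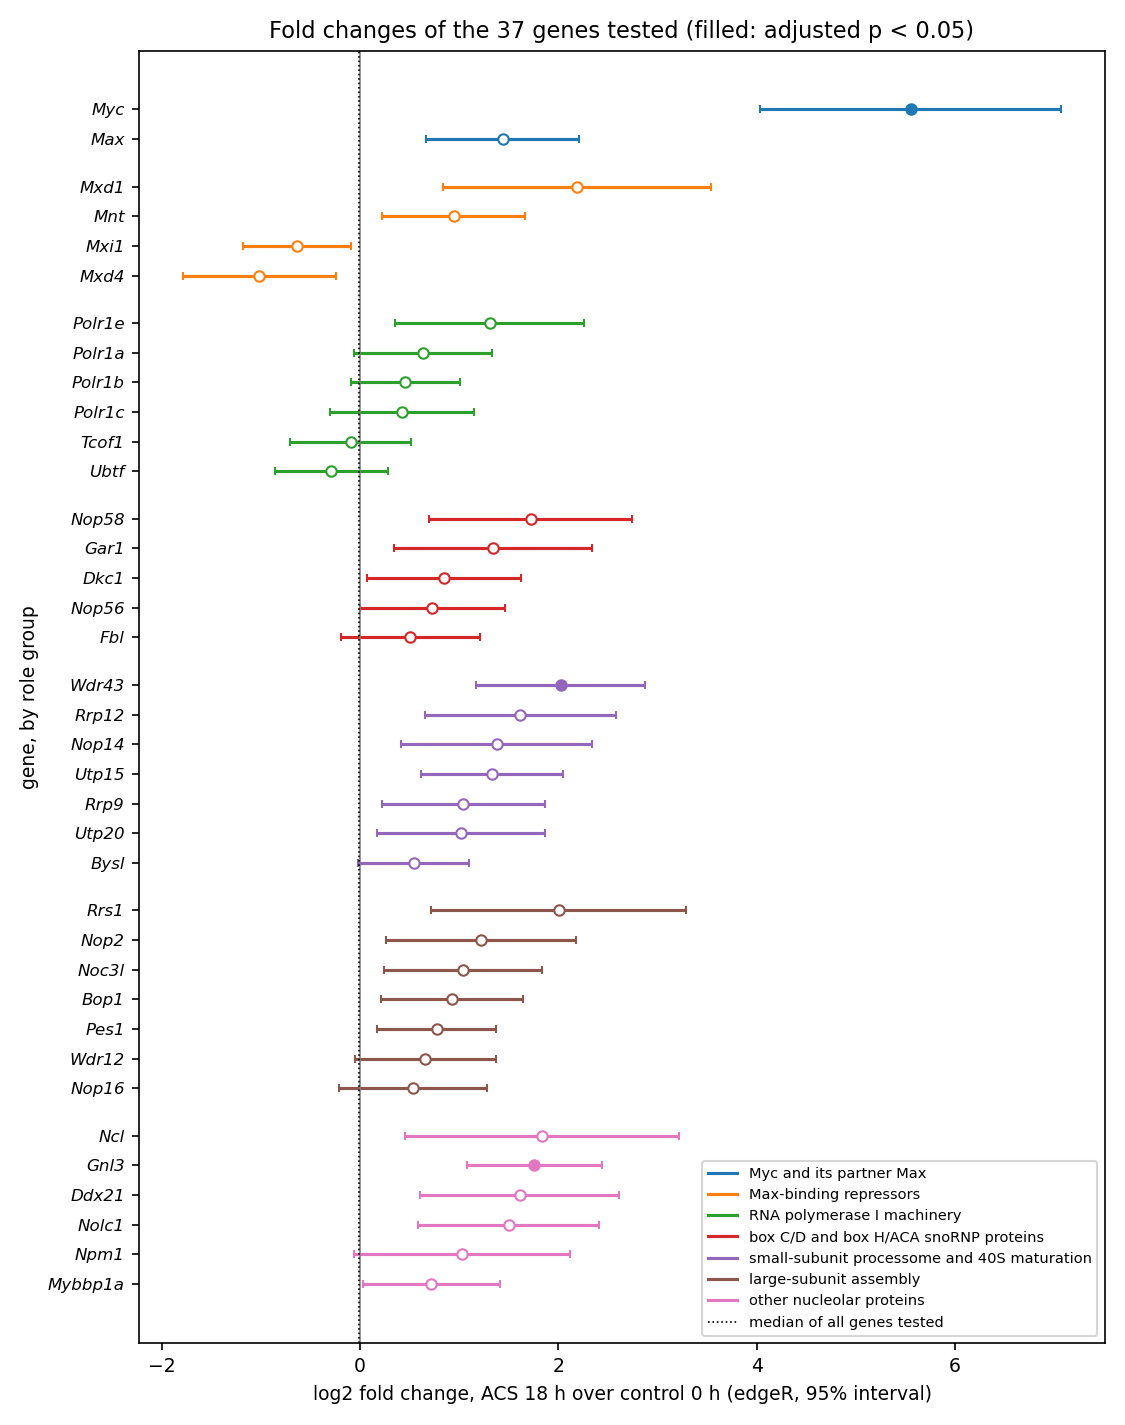
Log2 fold change of ACS 18 h over control 0 h (x axis) for the 37 genes tested, by role group (y axis, colours), with 95% intervals from edgeR; filled points passed an adjusted p under 0.05 and the dotted line is the median of all genes tested. Myc stands at 5.55, the other filled points are Wdr43 at 2.03 and Gnl3 at 1.76, and 33 of 37 points lie to the right of 0.

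Myc measured 3.56, 2.56 and 2.89 CPM in control replicates 1, 2 and 3, from 73, 53 and 70 counts. In ACS replicates 1, 2 and 3 it measured 261, 120 and 42.8 CPM, from 2791, 2339 and 767 counts. The lowest ACS library was thus far above the highest control, while the ACS libraries themselves differed widely. The log2 fold change was 5.55 (SE 0.665, 95% interval 4.04 to 7.07, adjusted p = 0.0112 by edgeR's quasi-likelihood test). Without ACS replicate 1 it was 4.76 (adjusted p = 0.00243). Without control replicates 1, 2 and 3 the value was 5.62, 5.39 and 5.47, and the call was lost each time (adjusted p = 0.10, 0.0939 and 0.0740); with any 1 control left out no gene of the whole table passed. The gene (ENSRNOG00000004500) lies on the plus strand at chr7:102586313-102591237 of Rnor 6.0.

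Max, the obligate partner, measured 25.7, 29.8 and 34.9 CPM in control and 119, 74.7 and 51.2 CPM in ACS replicates 1, 2 and 3. Its groups did not overlap, but the log2 fold change of 1.44 (SE 0.340) had an adjusted p of 0.0538 in edgeR and did not pass; without ACS replicate 1 it was 1.06 with an adjusted p of 0.0422. Two-sided exact permutation tests on single genes cannot go below p = 0.1 with 3 libraries against 3, and gave that value for Myc and for Max.

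The Max-binding repressors went in both directions, and 0 of 4 passed. Mxd1 (also called Mad1), known for its rise in cells that stop dividing, measured 10.7, 11.3 and 12.5 CPM in control and 107, 33.4 and 17.4 CPM in ACS (log2 fold change 2.19, SE 0.594, adjusted p = 0.0724 in edgeR). The value was 1.14 without ACS replicate 1, so that library carried much of the size. Mnt, the broadly expressed repressor that most often pairs with Max in resting cells, measured 8.97, 6.09 and 5.41 CPM in control and 11.9, 15.95 and 11.6 CPM in ACS (log2 fold change 0.95, SE 0.316). Both were higher in every ACS library on this scale, although the Mnt groups overlapped in FPKM (the authors' values, divided by gene length and library total).

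Mxd4 and Mxi1 were on the lower side. Mxd4 measured 32.2, 30.0 and 41.8 CPM in control and 13.8, 25.6 and 12.1 CPM in ACS, a log2 fold change of -1.01 (SE 0.337, adjusted p = 0.116 in edgeR). Mxi1 measured 72.9, 81.4 and 67.6 CPM in control and 42.8, 43.5 and 56.5 CPM in ACS, at -0.64 (SE 0.239, adjusted p = 0.154). Neither passed, and for both every ACS library was below every control library in CPM and in FPKM. Of all genes tested this held for 14.8% in CPM and 27.3% in FPKM.

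**Figure D2:**
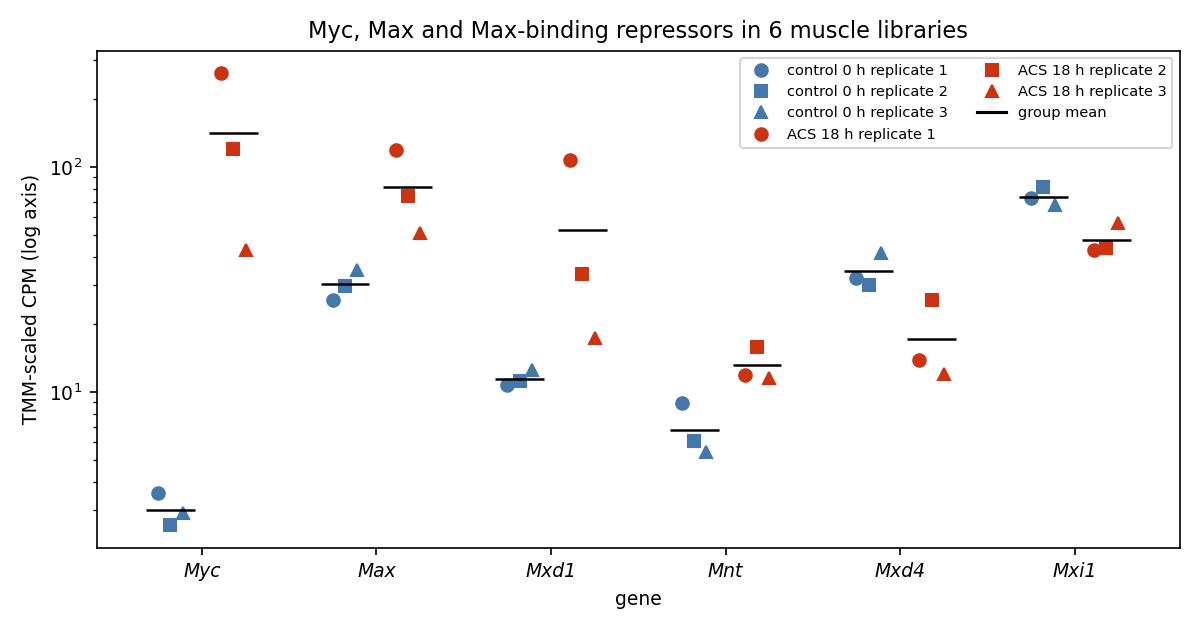
TMM-scaled CPM on a log axis (y) of Myc, Max and 4 Max-binding repressors (x) in 3 control libraries at 0 h and 3 ACS libraries at 18 h; symbols give the replicate and bars the group mean. Myc lies between 2.56 and 3.56 CPM in control and between 42.8 and 261 CPM in ACS, and Mxd4 and Mxi1 lie lower in every ACS library.

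Ratios of 2 genes within a library do not depend on the scaling of that library; these pairs were picked after their values were seen, so the ratios are a description. The ratio of Myc to Max in FPKM was 0.131, 0.0814 and 0.0783 in control and 2.07, 1.52 and 0.791 in ACS replicates 1, 2 and 3. Per length, Max RNA was thus several times as abundant as Myc RNA in control muscle, and in 2 of the ACS libraries Myc exceeded it. The ratio of Mxd1 to Mxd4 was 0.428, 0.482 and 0.385 in control and 9.94, 1.68 and 1.86 in ACS, so the more abundant of these repressors was Mxd4 in every control library and Mxd1 in every ACS library. Mxd1 to Mxi1 went from 0.210, 0.198 and 0.265 to 3.58, 1.10 and 0.441, and in ACS replicate 3 Mxi1 was still the more abundant.

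**Figure D3:**
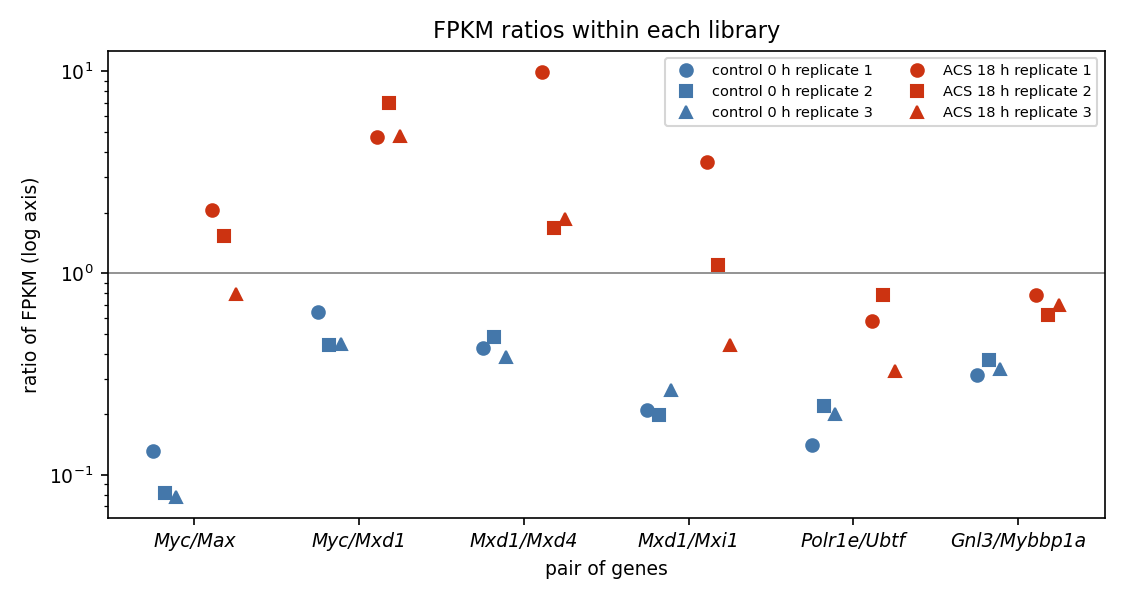
Ratio of the FPKM of 2 genes within each library, on a log axis (y), for 6 pairs (x) in control and ACS libraries; the grey line marks equal levels. Myc to Max lies at 0.131 or less in control and at 0.791 or more in ACS, and Mxd1 to Mxd4 crosses the line between the groups.

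The nucleolar and RNA polymerase I genes held 31 tested members, with a median log2 fold change of 1.03 (0.64 without ACS replicate 1) and 29 above 0; 2 rose and 0 fell. In the 6 genes Myc, Max and the Max-binding repressors the median was 1.19, over a range from -1.01 to 5.55, the value of Myc itself. Every role group of nucleolar assembly factors had all its tested members above 0, and the RNA polymerase I machinery did not.

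In the RNA polymerase I machinery 4 of 6 members were above 0 with a median of 0.44, and 0 passed. Polr1a, the largest subunit, measured 33.3, 32.4 and 40.9 CPM in control and 65.1, 65.9 and 34.2 CPM in ACS, where replicate 3 lay inside the control range. Polr1b, the second largest subunit, measured 20.9, 17.4 and 21.1 CPM in control and 31.3, 25.8 and 24.5 CPM in ACS. This was a small difference with no overlap in CPM (log2 fold change 0.46, SE 0.241, adjusted p = 0.283 in edgeR). The Polr1b groups overlapped in FPKM, and its log2 fold change was 0.12 with library totals. Polr1e, a subunit that helps initiation and elongation, had the largest difference of the group, with 3.22, 4.74 and 4.83 CPM in control and 13.8, 12.7 and 5.30 CPM in ACS (log2 fold change 1.31, SE 0.418, adjusted p = 0.106).

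Ubtf, the factor that binds and opens ribosomal RNA genes, was the most abundant of the group per length. It measured 62.1, 58.6 and 65.0 CPM in control and 64.3, 44.0 and 43.9 CPM in ACS, a log2 fold change of -0.29 with a 95% interval from -0.86 to 0.28. On the FPKM scale its ACS libraries, at 10.1, 9.33 and 8.78, were all below its control libraries, at 14.3, 13.9 and 15.8. Tcof1, or treacle, which works with Ubtf, showed the same 2 patterns, at -0.09 (95% interval -0.70 to 0.52); its sign turned to positive when control replicate 3 and ACS replicate 3, whose sample names share the prefix ji, were both left out. The remaining subunit, Polr1c, which RNA polymerase III also uses, was at 0.43. The ratio of Polr1e to Ubtf within a library was 0.140, 0.219 and 0.201 in control and 0.579, 0.781 and 0.327 in ACS.

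Among the proteins of the box C/D and box H/ACA particles, which methylate and pseudouridylate ribosomal RNA, 5 of 5 tested members were above 0 with a median of 0.85, and 0 passed. Nop58, a core box C/D protein, measured 9.31, 16.3 and 11.9 CPM in control and 70.7, 30.4 and 22.9 CPM in ACS (log2 fold change 1.72, SE 0.448, adjusted p = 0.0640 in edgeR). Its groups did not overlap, in CPM or in FPKM. Gar1, a box H/ACA protein, measured 3.66, 4.79 and 7.93 CPM in control and 21.2, 11.9 and 8.65 CPM in ACS (1.34, SE 0.437). Dkc1, the pseudouridine synthase dyskerin, measured 39.3, 16.9 and 30.0 CPM in control and 47.0, 63.8 and 44.3 CPM in ACS (0.85, SE 0.341), with the widest control spread of the 3. Nop56 and the methyltransferase fibrillarin, Fbl, were at 0.73 and 0.51. Fbl shares its locus with Dyrk1b on the same strand, which held 14613 counts over all libraries against 1266 for Fbl, so its value is uncertain.

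Of the small-subunit factors 7 of 7 tested members were above 0, with a median of 1.33 (0.77 without ACS replicate 1), and 1 rose. Wdr43, a WD-repeat protein of the processome, the particle that makes the first cuts in the precursor RNA, measured 21.3, 25.0 and 32.6 CPM in control and 158, 102 and 62.0 CPM in ACS replicates 1, 2 and 3. The lowest ACS library was well above the highest control. The log2 fold change was 2.03 (SE 0.374, 95% interval 1.17 to 2.88, adjusted p = 0.0300 in edgeR), or 1.64 without ACS replicate 1 (adjusted p = 0.0154). It did not pass without ACS replicate 2 (adjusted p = 0.0558) or without control replicates 1, 2 and 3 (adjusted p = 0.173, 0.164 and 0.116). The gene (ENSRNOG00000026316) lies on the minus strand at chr6:23433532-23473169 of Rnor 6.0.

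Utp15, another early processome protein, measured 9.996, 7.497 and 9.71 CPM in control and 30.8, 22.0 and 15.8 CPM in ACS (log2 fold change 1.33, SE 0.316, adjusted p = 0.0540 in edgeR). Rrp12, which takes part in export of the small subunit, measured 59.9, 47.4 and 81.3 CPM in control and 149, 316 and 114 CPM in ACS (1.62, SE 0.422, adjusted p = 0.0644). Rrp12 differed from most members in that ACS replicate 2 was the highest, and it passed when ACS replicate 1 was left out (1.77, adjusted p = 0.0385). Without ACS replicate 2 it was 1.02 (adjusted p = 0.138). Nop14, Rrp9, Utp20 and Bysl lay between 0.54 and 1.38.

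In the large-subunit group 7 of 7 members were above 0 with a median of 0.92, and 0 passed. Rrs1, needed to bring the 5S particle into the subunit, measured 6.83, 5.66 and 5.99 CPM in control and 46.8, 19.9 and 7.87 CPM in ACS (log2 fold change 2.01, SE 0.565, adjusted p = 0.0779 in edgeR). Its ACS replicate 3 lay just above control, and without ACS replicate 1 the value was 1.17. Noc3l measured 6.14, 7.40 and 7.81 CPM in control and 21.9, 10.9 and 11.4 CPM in ACS (1.04, SE 0.350). Pes1, Bop1 and Wdr12 form 1 complex (PeBoW); Pes1 measured 30.9, 29.7 and 27.5 CPM in control and 58.9, 55.4 and 36.5 CPM in ACS (0.77, SE 0.261), with Bop1 at 0.92 and Wdr12 at 0.66. The 3 subunits thus had similar fitted differences, though Bop1 shares its locus with Mroh1 and Scx on the other strand, and with no strand setting stated its reads cannot be told from theirs. Nop2, a methyltransferase, and Nop16 were at 1.22 and 0.53.

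The other nucleolar proteins were all above 0 (6 of 6), with a median of 1.56 (0.80 without ACS replicate 1) and 1 that rose. Gnl3, or nucleostemin, a nucleolar GTPase known from stem and cancer cells, measured 17.2, 18.9 and 18.8 CPM in control and 77.4, 68.5 and 40.1 CPM in ACS. The control libraries lay close together and every ACS library was above them. The log2 fold change was 1.76 (SE 0.298, 95% interval 1.08 to 2.44, adjusted p = 0.0241 in edgeR), or 1.57 without ACS replicate 1 (adjusted p = 0.0142). The call was lost without ACS replicate 2 (adjusted p = 0.0526) and without control replicates 1, 2 and 3 (adjusted p = 0.164, 0.147 and 0.121). Gnl3 (ENSRNOG00000028461) lies on the minus strand at chr16:7097507-7103604 of Rnor 6.0.

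Ncl, nucleolin, is one of the main proteins of the nucleolus and had the highest FPKM of this group. It measured 75.9, 107 and 105 CPM in control and 722, 173 and 138 CPM in ACS (log2 fold change 1.84, SE 0.607, adjusted p = 0.114 in edgeR). ACS replicate 1 was far above the others, and without it the value was 0.69. Nolc1, a chaperone of small nucleolar particles, measured 31.0, 27.0 and 36.2 CPM in control and 150, 63.0 and 54.9 CPM in ACS (1.503, SE 0.401, adjusted p = 0.0698), and passed without ACS replicate 1 (0.91, adjusted p = 0.0495). Ddx21, an RNA helicase, measured 22.2, 23.3 and 33.7 CPM in control and 136, 66.4 and 40.2 CPM in ACS (1.61, SE 0.440, adjusted p = 0.0728). Npm1, nucleophosmin, and Mybbp1a were at 1.03 and 0.72. The Npm1 groups overlapped, and without ACS replicate 1 its value was 0.21.

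Levels per length differed widely between members. Among the 37 tested, Ncl, Npm1 and Mybbp1a had the highest mean control FPKM at 41.9, 39.9 and 31.1, and Myc the lowest at 1.44. Gnl3 stood at 10.6 and Wdr43 at 8.62 in control, and at 28.2 and 27.1 in ACS. The ratio of Gnl3 to Mybbp1a within a library was 0.315, 0.371 and 0.334 in control and 0.777, 0.625 and 0.695 in ACS, with every ACS library above every control library.

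Most members had the same order among the ACS libraries. ACS replicate 1 was above replicate 2 and replicate 2 above replicate 3 in 25 of 37 members (67.6%), an order shared with Myc. Of all genes tested 22.6% had this order, and 34.1% of those with a log2 fold change above 0. ACS replicate 3 was the lowest ACS library in 33 members (89.2%), against 35.5% of all genes and 51.3% of those with a log2 fold change above 0. The median log2 ratio of the 31 nucleolar and RNA polymerase I genes to the control mean was 1.501, 0.92 and 0.33 in ACS replicates 1, 2 and 3, while that of all genes lay between -0.07 and -0.01. The summed macrophage markers had the same order among ACS libraries, and so had the endothelial sum, at 484, 297 and 163 CPM. The mature muscle fibre sum, over the 4 of 7 listed markers that were matched, had the reverse order, at 73756.5, 102802.0 and 183291.7 CPM. The fibroblast sum had that reverse order too. The neutrophil and erythroid sums had neither order. In control replicates 1, 2 and 3 the fibre sum was 134555.6, 120602.6 and 114865.5 CPM. ACS replicates 1 and 2 thus lay below every control library in fibre sum, and ACS replicate 3 above every control library. The mitochondrial share did not have the order of the members, at 43.4%, 4.82% and 5.33%. The part of these cells in the order was not tested.

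**Figure D4:**
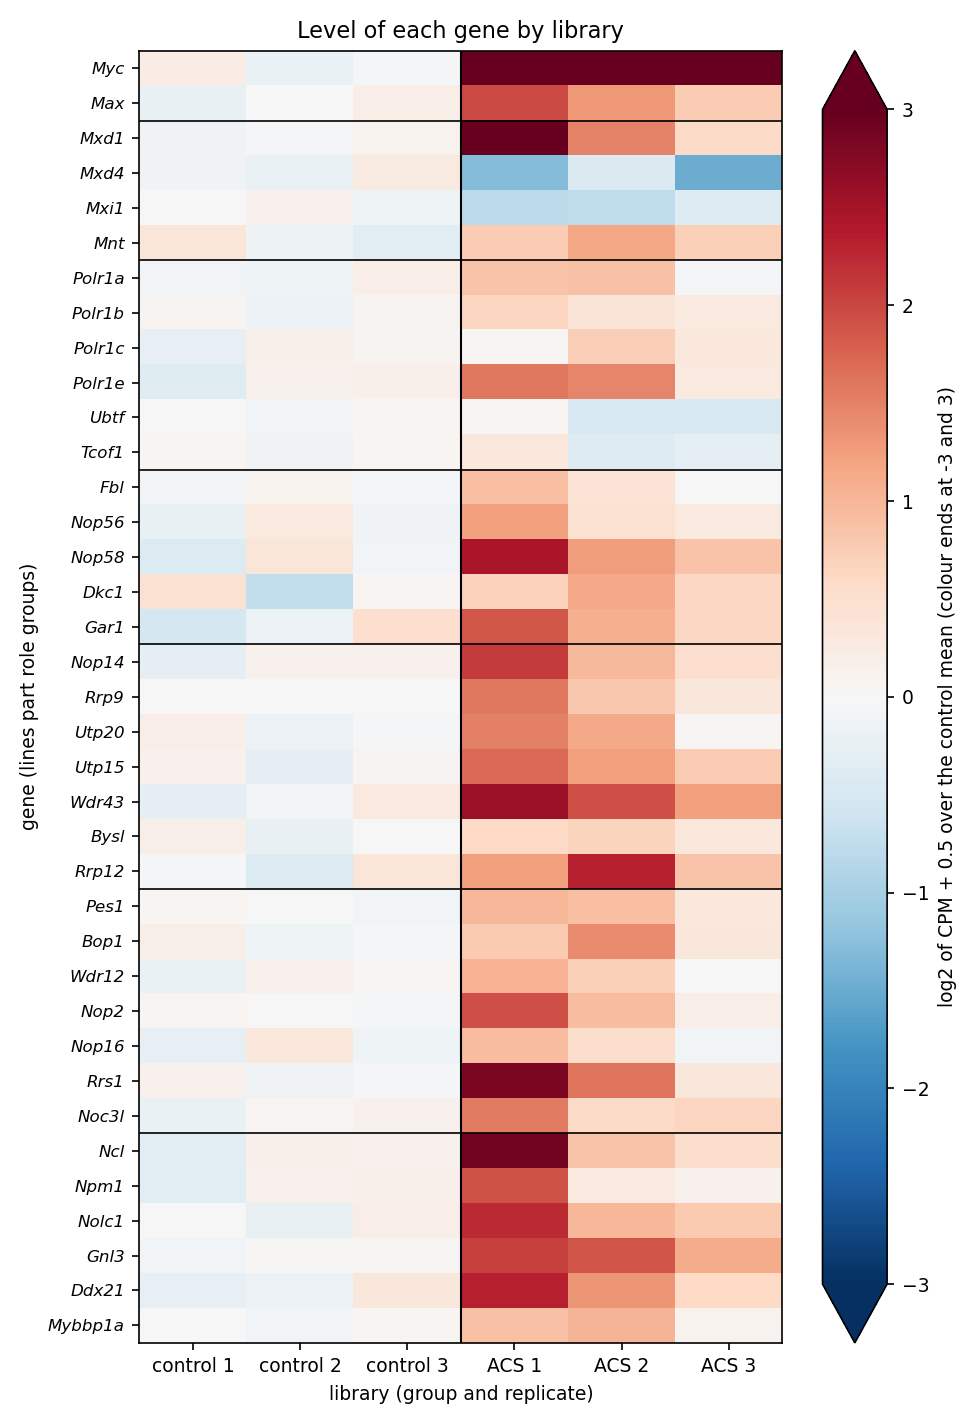
Log2 of the TMM-scaled CPM plus 0.5 over the control mean (colour, capped at both ends of the scale) for 37 genes (rows, with lines between role groups) in 6 libraries (columns). ACS replicate 1 is darkest and ACS replicate 3 palest in most rows, and Mxd4 and Mxi1 are blue in the 3 ACS libraries.

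Without ACS replicate 1, 6 members rose (Myc, Max, Wdr43, Gnl3, Rrp12 and Nolc1), against 4.99% of genes, 33 of 37 members were above 0 and the median of all 37 was 0.69. Beside the members already named, Nop58, Noc3l and Ddx21 then had log2 fold changes of 1.09, 0.64 and 1.01, and Nop14, Nop2, Rrp9, Nop56, Fbl, Nop16 and Wdr12 lay between 0.24 and 0.77. Bop1 was at 0.54 and Polr1c at 0.17 without ACS replicate 2, and Dkc1 at 0.52 without control replicate 2. Every remaining ACS library was above every control library in 27 members and below in 4, against 20.9% and 19.8% of genes. Without ACS replicate 3, 21 rose, against 9.72% of genes. Scaling by library totals moved the median of all genes to -0.32 and the split of all calls from 442 higher and 91 lower to 345 and 228; limma on log2(FPKM + 1) moved it to 249 and 268, with 33 of 37 members above 0 under each. In FPKM as deposited, 15 members were higher in every ACS library and 4 lower, against 9.47% and 27.3% of genes. The 4 lower there were Mxd4, Mxi1, Ubtf and Tcof1. These counts on the FPKM scale and without ACS replicate 1 were added after the data had been seen.

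A wider set of 203 genes of the same pathways was read next, of which 192 were tested; 7 rose and 0 fell. These 7 are 3.65% of those tested, near the 3.43% of all genes. Without ACS replicates 1, 2 and 3, 12, 1 and 38 rose, or 6.25%, 0.521% and 19.7% against 4.99%, 2.14% and 9.72% of all genes. At an unadjusted p under 0.05, 29.2% were higher, against 15.5% of all genes. Of 13 further RNA polymerase I genes 2 rose. Twistnb, a polymerase subunit, measured 10.9, 12.3 and 9.29 CPM in control and 43.3, 27.8 and 22.0 CPM in ACS (log2 fold change 1.52, SE 0.315, adjusted p = 0.0397 in edgeR), and Taf1d, of the promoter selectivity factor, 4.73, 6.19 and 7.35 CPM and 48.7, 21.1 and 13.3 CPM (2.18, SE 0.480, adjusted p = 0.0452). The list of further large-subunit factors had 51 tested genes. It also holds Nop10, Naf1, Shq1 and Nufip1, which belong to the box C/D and box H/ACA particles or their assembly. Of the 51, 3 rose: Ppan (2.74, SE 0.512), Gnl2, a GTPase related to Gnl3 (2.08, SE 0.402), and Tex10 (1.82, SE 0.357). The list's median was 0.68 (0.44 without ACS replicate 1) with 44 of 51 above 0. Among 49 further small-subunit factors 0 rose by edgeR, 18 had an unadjusted p under 0.05 on the higher side, and the median was 0.54; without ACS replicates 1 and 3 in turn 2 and 14 rose. The smallest p there was that of Tsr1, at 22.0, 21.3 and 26.2 CPM in control and 112, 60.5 and 40.7 CPM in ACS (adjusted p = 0.0517).

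Set against the promoter letters shown above, the differences were as follows. The 13 genes with the core had a median log2 fold change of 0.95 and the 20 tested genes without it 1.04. Myc, Wdr43, Rrs1 and Bop1 had no window and are in neither median; their log2 fold changes were 5.55, 2.03, 2.01 and 0.92, so these medians leave out 2 of the 3 members that rose. Of these 5 genes Gnl3 rose, and Max, Pes1, Mnt and Utp20 had log2 fold changes of 1.44, 0.77, 0.95 and 1.02 that did not pass.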

How the data were processed

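The deposited table holds, per the file headers, whole-number read counts and FPKM values for each Ensembl gene in 6 libraries of ribosomal RNA-depleted total RNA. Per the submitters' processing notes, HISAT2 2.0.4, StringTie 1.3.0 and Rnor 6.0 were used. How reads were assigned to genes, and whether by strand, is not stated there. The authors' FPKM equalled count over gene length and column total in all 11174 genes with 10 counts in every library, to within 0.1%. No 2 libraries agreed within sampling noise (chi-square per degree of freedom 38.2 to 721).

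Counts were tested with edgeR 4.0.16 in R 4.3.3 over the whole table: filterByExpr (minimum count 10, total 15), TMM, quasi-likelihood F test, Benjamini-Hochberg over 12873 genes. Standard errors come from the F statistic. Alternatives used DESeq2 1.42.0 and limma 3.58.1, other scalings and filters, a replicate block, and libraries left out.

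Members and lists were chosen with earlier results of these data known. Values in every library are given for Myc, Max, members that passed, and in each role group the 3 smallest p and the highest FPKM. From each wider list up to 3 genes that passed are named, or the smallest p. Of 203 listed wider genes 199 were matched by symbol, 6 through an older symbol. Gene positions are those of the table, promoter positions those of RefSeq GRCr8.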

Additional observations from a re-analysis of the deposited data

How the results depend on the processing

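Over 20 alternatives, the 23 members described by library kept their direction; the number past the threshold, 3 by edgeR, moved more. It was 5 with a filter of 50 counts, 15 with DESeq2, 14 with limma-voom and quality weights, 11 with no filter, 1 with edgeR's 1.5-fold limit and 1 with limma on log2(FPKM + 0.1), and 0 to 21 with 1 library left out. Among all genes, 442 were higher. That count was 1316 with DESeq2, 1059 with quality weights, 755 with no filter, 262 with limma-voom, 249 with log2(FPKM + 1), 199 with log2(FPKM + 0.1), 248 with a term for the ji libraries, 171 without them, 184 with the 1.5-fold limit, and 0 to 1286 with 1 library left out. The 91 lower genes were 428, 356, 153, 268, 32, 30 and 12 with DESeq2, quality weights, no filter, log2(FPKM + 1), the ji term, without both ji libraries and the 1.5-fold limit, 228 with library totals, and 0 to 398 with 1 library left out. The 7 wider-list genes were 28 with DESeq2 and with quality weights, 14 with no filter, 11 with 50 counts, 4 with the ji term, 2 with limma-voom and with log2(FPKM + 1), 1 with log2(FPKM + 0.1) and with the 1.5-fold limit, and 0 to 38 higher and 0 to 1 lower with 1 library left out. The RNA polymerase I median of 0.44 was 0.13 with library totals, 0.0997 with log2(FPKM + 0.1) and 0.0896 with log2(FPKM + 1). That of all nucleolar and polymerase I genes, 1.03, was 0.50 with log2(FPKM + 1). The median of all genes, -0.01 in the main fit, moved down as well. It was -0.32 with library totals, -0.37 with log2(FPKM + 0.1) and -0.30 with log2(FPKM + 1). The cause was not tested. Wdr43 missed the threshold with the ji term, and Wdr43 and Gnl3 with the 1.5-fold limit and with log2(FPKM + 0.1). Same-numbered libraries share only a number (correlations of deviations -0.06, 0.01 and 0.04); with a replicate block 3 members passed, and 442 genes were higher and 63 lower.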

Other observations

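Of 28 tested growth genes often listed as Myc targets 2 rose, 0 fell and the median log2 fold change was 0.11. At an unadjusted p under 0.05, 8 (28.6%) were higher, against 15.5% of all genes. Without ACS replicate 3, 5 rose and 1 fell at the adjusted threshold, where 9.72% of all genes rose. Slc7a5, a carrier of large neutral amino acids, measured 0.9753, 1.35 and 0.702 CPM in control and 113, 30.8 and 33.5 CPM in ACS replicates 1, 2 and 3 (log2 fold change 5.87, SE 0.641, adjusted p = 0.00994 in edgeR; 4.99 without ACS replicate 1). Mthfd2, a mitochondrial enzyme of folate metabolism, measured 0.683, 0.677 and 0.578 CPM and 11.7, 3.45 and 2.29 CPM (3.14, SE 0.656, adjusted p = 0.0402; 2.14 without ACS replicate 1). Both were low in every control library and higher in every ACS library.

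RNA polymerase III, which makes transfer RNA and the 5S ribosomal RNA, had 0 of 20 genes past the edgeR threshold, 1 (5%) higher at an unadjusted p under 0.05, against 15.5% of all genes, and a median log2 fold change of 0.13, against 0.84 in the 13 further RNA polymerase I genes. Without ACS replicate 1 these medians were 0.09 and 0.27, and the difference between the lists was not tested. The 6 tested members of the RNA polymerase I machinery described above had a median of 0.44 (0.42 without ACS replicate 1), and 0 passed. In the polymerase III list the smallest p was that of Polr3a, the largest subunit of that polymerase. It measured 28.3, 26.5 and 30.2 CPM in control and 32.9, 55.5 and 48.4 CPM in ACS (adjusted p = 0.163 in edgeR). For the exosome, which trims ribosomal RNA ends, 0 of 14 passed, 2 (14.3%) were higher at an unadjusted p under 0.05, near the share of all genes, and the median was 0.26, with Mphosph6 the smallest p (1.28, adjusted p = 0.0747). Without ACS replicate 1, 1 polymerase III and 0 exosome genes rose, against 4.99% of all genes. Without ACS replicate 3, 0 and 2 rose, against 9.72% of all genes. In the wider Myc and Mlx network 0 of 17 passed, 3 (17.6%) were higher and 1 lower at an unadjusted p under 0.05, and the median was 0.09; Hcfc1, a cofactor of Myc, had the smallest p (0.98, adjusted p = 0.0817).

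Of 8 proliferation markers 5 were tested and 0 passed in edgeR, also without ACS replicate 1 or 3. Of the 5, 4 were above 0, against 49.3% of all genes. The median log2 fold change was 1.23 (0.82 without ACS replicate 1). At an unadjusted p under 0.05, 2 were higher, against 15.5% of all genes. These were Pcna, at 10.3, 11.9 and 11.3 CPM in control and 21.1, 16.9 and 15.2 CPM in ACS, and Mcm5, at 0.536, 0.194 and 0.33 CPM and 1.78, 1.03 and 0.67 CPM. Both were higher in every ACS library, as were 16.7% of all genes, and Mcm5 was low in all libraries. Mcm2 was lower in every ACS library (-0.42), and Top2a, Cdk1, Ccnb1 and Rrm2 were at or below 2.15 CPM in every library. Mki67 was at 4.05, 1.69 and 0.826 CPM in control and 8.52, 3.81 and 4.52 CPM in ACS. Of 5 satellite cell and myoblast markers, all tested, 2 were above 0 and 3 below, with a median of -0.12. Myf5 rose (2.18, adjusted p = 0.0420 in edgeR) and Myod1 fell (-1.28, adjusted p = 0.0439), and the other members, Pax7, Myog and Des, did not pass. Over all genes tested 3.43% rose and 0.707% fell.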
